A study of Caenorhabditis elegans with 2 samples.

Results

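Binding of ELT-1, a GATA transcription factor of the worm epidermis, was examined at 10 genes of the Wnt and Wnt asymmetry pathways of Caenorhabditis elegans: mig-5, dsh-1, dsh-2, pop-1, bar-1, apr-1, lin-17, lin-44, egl-20 and mom-2. The genes were chosen by name, with earlier results of these data known. Each was given every ranked region whose summit lay from 3 kb upstream of the gene to its end. This gave 29 of the 30000 regions of the pooled list, at 9 of the 10 genes. Chromatin immunoprecipitation and sequencing (ChIP-seq) had been done on 2 biological replicates of strain OP354, genotype unc-119(tm4063) III; wgIs354. The transgene wgIs354 encodes ELT-1 tagged with enhanced green fluorescent protein. The sources used here do not give the promoter of the transgene or the strain of the control. No untagged strain is among the samples. The animals were whole L2 larvae of mixed sex, age unknown per the labels, so binding in a few cells and weak binding in many cells cannot be told apart. All samples were of this 1 group, and the only comparisons are between replicates, between genes and with the rest of the genome.

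Wnt proteins are secreted signals that bind Frizzled receptors and act through Dishevelled proteins on a beta-catenin and on POP-1, the worm TCF factor. In the Wnt/beta-catenin asymmetry pathway, this signal leaves the daughters of a dividing cell with unequal nuclear POP-1, so that they take different fates. The epidermal seam cells of the larva divide asymmetrically in this way. ELT-1 is needed for epidermal fate in the embryo and is expressed in the larval epidermis, and GATA factors bind the sequence WGATAR, a GATA core with A or T before it and A or G after it.

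Only mig-5 held a thresholded peak, a region that the authors kept by the irreproducible discovery rate, which rests on agreement of ranks between replicates. The kept regions were the first 351 of the pooled list, so a single peak need not rank alike in both replicates. Over all 19973 protein-coding genes, 1.74% held such a peak in the same kind of window. The 101 bp around the strongest region of mig-5, dsh-1, dsh-2, egl-20 and bar-1 are shown, for the Dishevelled genes, a ligand gene and the beta-catenin gene. Each is the strongest only within its own gene, and that of bar-1 ranked 18688, at 0.924 times the pooled median signal. The stronger region of pop-1, at rank 1505, is not shown. The windows have these properties in common. All are read from ce11 on the plus strand with the summit in the middle, and capitals mark each GATA core on either strand, so that TATC is a core on the minus strand.
mig-5, chrII:8185144-8185244: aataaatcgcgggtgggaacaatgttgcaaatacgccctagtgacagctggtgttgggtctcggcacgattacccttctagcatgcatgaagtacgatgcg
dsh-1, chrII:5221884-5221984: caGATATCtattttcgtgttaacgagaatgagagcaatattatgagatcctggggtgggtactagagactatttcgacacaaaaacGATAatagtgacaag
dsh-2, chrII:5081433-5081533: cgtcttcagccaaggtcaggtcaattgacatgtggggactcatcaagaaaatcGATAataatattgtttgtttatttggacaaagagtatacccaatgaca
egl-20, chrIV:9814431-9814531: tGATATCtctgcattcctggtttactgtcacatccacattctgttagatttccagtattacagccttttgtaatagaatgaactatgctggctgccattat
bar-1, chrX:7170902-7171002: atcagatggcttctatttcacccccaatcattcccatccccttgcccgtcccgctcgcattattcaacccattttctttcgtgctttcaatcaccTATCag

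The window of the mig-5 peak held no GATA core at all, and the whole 264 bp region held no WGATAR. Of these 5 windows, only that of bar-1 held a full WGATAR site, a TGATAG on the minus strand 44 bp from the summit. The windows of dsh-1 and egl-20 each held GATATC, which reads as GATA on both strands, and in both the core is followed by T rather than A or G. The other core of dsh-1 and the lone core of dsh-2 are preceded by C.

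The peak at mig-5, a Dishevelled gene with a part in asymmetric divisions (WBGene00003241, chromosome II from 8182323 to 8185023, minus strand), had a pooled signal of 26.6. It ranked 293 of the 351 thresholded peaks, whose signals ran from 24.6 to 692 with a median of 32.4. The region spanned 8185062 to 8185325, and its summit lay 171 bp upstream of the gene start. In replicate 1 a summit 11 bp away had a signal of 17.1 and rank 261, which is 3.67 times the signal of the median region in the list for that replicate. In replicate 2 a summit 3 bp away had a signal of 6.30 and rank 8220, at 1.22-fold. All folds below are such ratios, because each list has its own signal scale. The mean was 2.45 ± 1.7-fold (SD, n = 2), so the replicates placed the summit alike and differed in its strength, and only replicate 1 ranked it better than 351.

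The mig-5 peak is shared with a neighbour. The chaperonin subunit gene cct-1 (WBGene00000377, plus strand, from 8185443) starts 420 bp from mig-5 and is transcribed away from it, and the summit lay 249 bp upstream of the cct-1 start. The summit therefore fell in both promoters, taken as 1000 bp upstream to 200 bp downstream of a transcript start, and nearer to mig-5. These lists do not assign it to either gene. Within 20000 bp of the summit were 14 other ranked regions, none of them a thresholded peak, and the best ranked 1700. The other 4 regions of the mig-5 window ranked from 16081 to 24092, at 0.835-fold to 0.975-fold over the pooled median. Among these, 3 lay inside exons of cct-1, which fills much of the upstream window, and 1 lay in a coding exon of mig-5.

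The second Dishevelled gene, dsh-1 (WBGene00001101, chromosome II from 5214400 to 5225384, minus strand), had 4 regions, all inside the gene. The strongest (5221802 to 5222065) had a pooled signal of 13.5 and rank 1822, and lay in an intron, 3450 bp downstream of the gene start and 1223 bp upstream of the start of a shorter transcript. Its signal was 10.6 in replicate 1, at rank 857 and 2.28-fold, and 6.65 in replicate 2, at rank 6721 and 1.29-fold. The mean was 1.78 ± 0.70-fold (SD, n = 2), and replicate 1 was again the higher. An intronic region 2468 bp downstream of the gene start ranked 4616 in the pooled list and 3340 in replicate 1, with no match in replicate 2. The remaining regions of dsh-1 ranked 18031, in an intron where the noncoding RNA gene C34F11.12 also lies, and 25776, in a coding exon.

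The third Dishevelled gene, dsh-2 (WBGene00001102, chromosome II from 5078233 to 5081174, minus strand), acts in asymmetric divisions of the embryo and the gonad. It had 5 regions, and its strongest (5081351 to 5081614) lay 309 bp upstream of the gene start at a pooled signal of 11.5 and rank 3440. This promoter region had a signal of 8.52 and rank 1891 in replicate 1, at 1.83-fold, and no matching summit in replicate 2. The highest region of the window in replicate 2 lay elsewhere, in a coding exon 2322 bp downstream of the start, with a signal of 8.49 and rank 2389. That exonic region ranked only 24868 in the pooled list and had no match in replicate 1. The replicates thus put the strongest dsh-2 region at opposite parts of the gene. A further region lay in an intron of the neighbour C04G6.4 (pooled rank 9606), and 2 more lay in a coding exon and an intron of dsh-2 (ranks 6350 and 14250).

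The TCF gene pop-1 (WBGene00004077, chromosome I from 2822243 to 2830311, minus strand) encodes the nuclear factor whose level differs between daughter cells. The pooled list gave it 2 regions. The stronger (2833120 to 2833383) had a pooled signal of 14.1 and rank 1505, the next after the mig-5 peak among the 29, and lay 2941 bp upstream of the gene start, near the far edge of the window. It was matched in replicate 1 only, at a signal of 4.77, rank 14062 and 1.03-fold, close to that list's median. The highest pop-1 regions of the replicates were at other places. Replicate 1 had one 3644 bp downstream of the start at rank 1876 and 1.83-fold, and replicate 2 had one 817 bp upstream at rank 2627 and 1.61-fold. Neither had a pooled summit within 100 bp, and the pooled region inside the gene, in an intron, ranked 25847.

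The ligand genes differed in how many regions they had. For egl-20 (WBGene00001188, chromosome IV from 9812357 to 9815532, minus strand), whose Wnt guides migrating neuroblasts, the strongest region (9814349 to 9814612) lay in a coding exon 1051 bp downstream of the start, with a pooled signal of 12.8 and rank 2253. Its signal was 4.94 in replicate 1, at rank 12751 and 1.06-fold, and 9.70 in replicate 2, at rank 1241 and 1.88-fold. The mean was 1.47 ± 0.58-fold (SD, n = 2), here with replicate 2 the higher. An intronic region of egl-20 had a pooled rank of 19729, and its summit also fell within 3 kb upstream of dct-15. For lin-44 (WBGene00003029, chromosome I from 4126056 to 4129310, plus strand), the Wnt that sets the polarity of cells in the tail, 3 regions ranked 8675, 9223 and 27979.

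The strongest lin-44 region lay 177 bp upstream of the start. It had a signal of 5.30 in replicate 1, at rank 10353 and 1.14-fold, and no match in replicate 2. The region at rank 9223 lay in a coding exon and held TGATAA, and the third lay in a coding exon of the neighbour H31G24.1. The third ligand gene, mom-2 (WBGene00003395, chromosome V from 8355988 to 8358185, plus strand), known for its part in specifying endoderm in the embryo, had no region in the pooled list. Replicate 1 had none either, and replicate 2 had one 1972 bp downstream of the start, with a signal of 6.82, rank 6137 and 1.32-fold. A gene without a region has no value here, since each list holds only its first 30000 regions, and this is not a measurement of no binding. A region was present at 9 of 10 genes, against 80.4% of all protein-coding genes.

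The Frizzled receptor gene lin-17 (WBGene00003006, chromosome I from 2706883 to 2717549, plus strand) had 3 pooled regions, all with signals at or under the pooled median of 7.81. They ranked 15144, 577 bp upstream of the gene start, and 24829 and 27917, both in introns. The first and the second were matched in replicate 2 only, at ranks 21210 and 22127, which are 0.866-fold and 0.848-fold. The weakest of them had rank 1701 in replicate 1, with a signal of 8.74 and 1.88-fold at the very same summit, and no match in replicate 2. In replicate 2 the highest lin-17 region ranked 20501, at 0.880-fold. No pooled lin-17 region had a summit within 100 bp in both replicates. A replicate 1 region of rank 5584 and 1.38-fold did overlap the pooled region upstream of the gene start, with its summit 149 bp away.

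The gene apr-1 (WBGene00000156, chromosome I from 8050037 to 8055475, plus strand) encodes an APC protein, which controls beta-catenin levels. It had 4 regions, ranked from 11145 to 22766. The strongest lay 1489 bp upstream of apr-1, inside an intron of K04G2.7 and in that gene's promoter window. It had rank 2277 and 1.75-fold in replicate 1 and no match in replicate 2. A coding exon of apr-1 held the one AGATAA among all 29 windows, at pooled rank 19500 and replicate 1 rank 28780.

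The beta-catenin gene bar-1 (WBGene00000238, chromosome X from 7166005 to 7170625, minus strand), which acts with POP-1 in vulval and neuroblast signalling, had 1 region. It lay 327 bp upstream of the start at a pooled signal of 7.21 and rank 18688, where the noncoding RNA genes F43E12.4 and F43E12.5 also lie. In replicate 1 a summit 75 bp away had a signal of 8.19 and rank 2216, at 1.76-fold, and replicate 2 had no match. The highest bar-1 region of replicate 2 lay 2888 bp upstream, at rank 4759 and 1.41-fold.

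**Figure D1:**
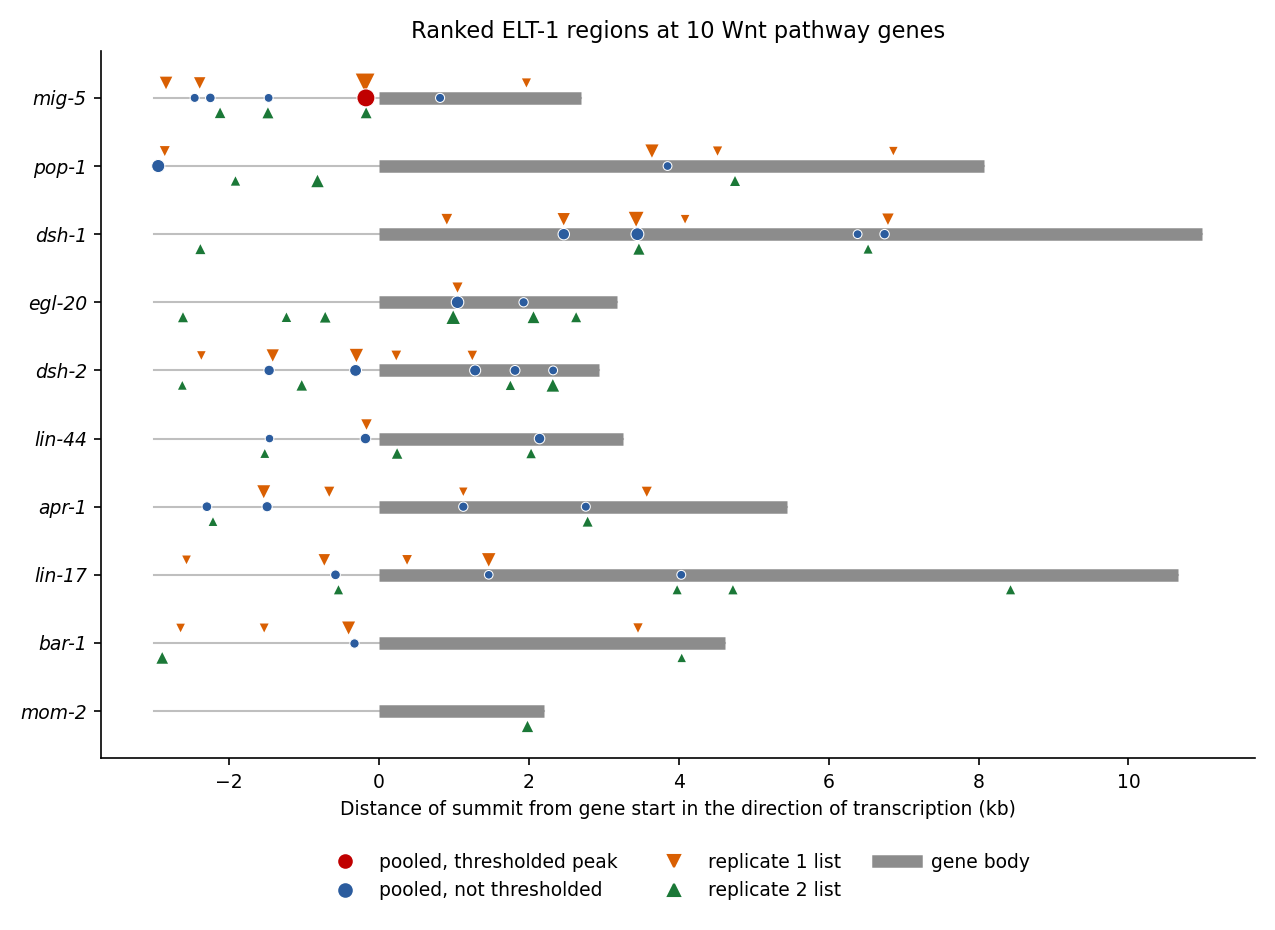
Each row is 1 gene, with the gene body as a bar and the 3 kb upstream as a line; the x axis gives the distance of each summit from the gene start in kb. Circles are pooled regions (red, thresholded peak), triangles are regions of replicate 1 (above) and replicate 2 (below), and symbol area is the signal relative to the median region. The mig-5 peak 171 bp upstream of the start is the only red circle, and few positions have all 3 symbols.

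The 9 genes with a region in both replicate lists could be ordered by the highest region in the window, whichever position it had. Only at dsh-1 and egl-20 did the replicates have it within 100 bp of each other. The means and SDs of the other genes therefore join different sites, which lay 1296 bp apart at mig-5. From high to low, the mean folds were 2.47 ± 1.71 at mig-5, 1.78 ± 0.699 at dsh-1, 1.74 ± 0.134 at dsh-2, 1.72 ± 0.159 at pop-1 and 1.59 ± 0.251 at bar-1 (SD, n = 2). They were 1.47 ± 0.576 at egl-20, 1.39 ± 0.507 at apr-1, 1.38 ± 0.707 at lin-17 and 1.14 ± 0.00185 at lin-44. Over all genes with a region in the list, the median of this highest fold was 1.20 in replicate 1 and 1.19 in replicate 2. These values are not adjusted for window length, with a median of 6938 bp at the 10 genes and 5027 bp over all genes. Between neighbours in this order, the difference was smaller than the SD of at least 1 of the pair in every case, so the order is not resolved. In replicate 2 alone egl-20 was the highest and mig-5 lay seventh among the 10, whereas in replicate 1 alone mig-5 was the highest.

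**Figure D2:**
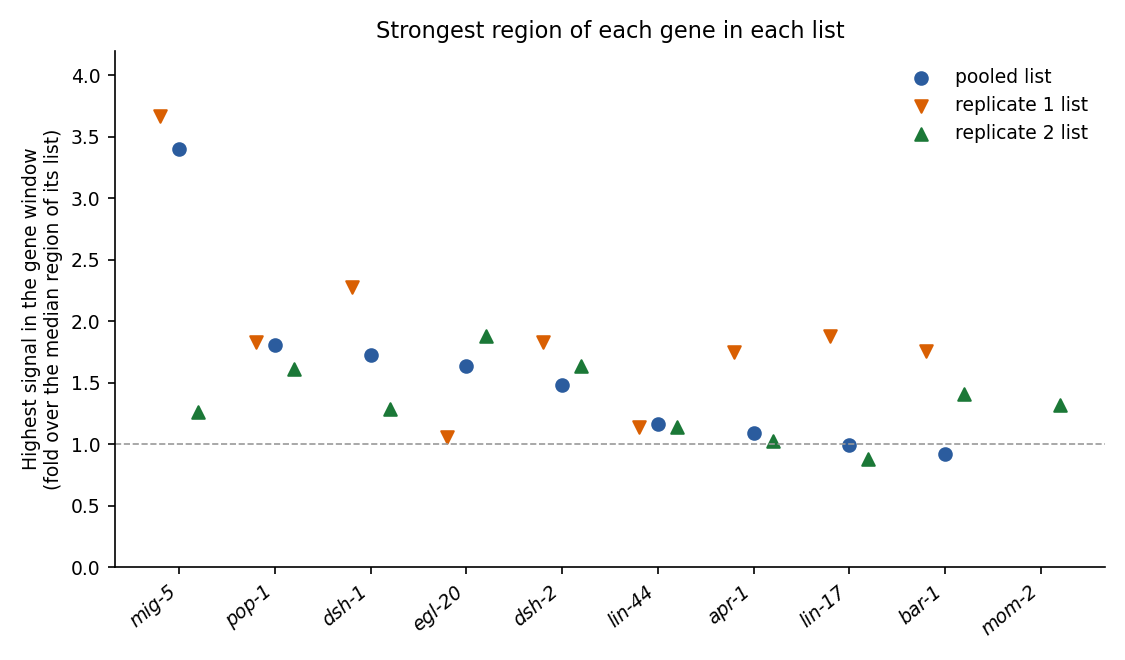
The y axis gives the highest signal in each gene's window divided by the median signal of all regions in its list, and the dashed line marks that median. Replicate 1 (downward triangles) reached 3.67-fold at mig-5 and 2.28-fold at dsh-1, where replicate 2 (upward triangles) reached 1.26-fold and 1.29-fold; mom-2 has a point in replicate 2 only.

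The replicates seldom agreed on a position, at these genes as over the rest of the list. Of the 29 pooled regions, 15 had a summit within 100 bp in replicate 1, 11 in replicate 2 and 6 in neither. The 3 member regions matched in both, 10.3% (95% exact binomial interval 2.19 to 27.4), were the strongest regions of mig-5, dsh-1 and egl-20. Over the 29971 other pooled regions, 13.4% were matched in both. The replicate lists held 32 and 31 regions in the 10 windows when taken by themselves, and 17 and 20 of these had no pooled summit within 100 bp. The same share over the rest of each replicate list is not given here. For 2 of the 9 genes, dsh-1 and egl-20, the highest region of both replicates was at the same place within 100 bp, against 1363 (10%) of the 13624 genes with a region in both lists.

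Among all genes, 5.26% had one of the first 1000 pooled regions in the window, and of the 10 genes only mig-5 did. With the first 1000 regions of replicate 1 alone there were 2, mig-5 and dsh-1, against 5.40% of all genes. With those of replicate 2 alone there were 0, against 5.65% of all genes. A region ranked as well as the best one of mig-5 lay at 1.47% of all genes, and the share was 8.05% for pop-1, 9.79% for dsh-1, 12.1% for egl-20 and 17.9% for dsh-2. The best regions of lin-44, apr-1, lin-17 and bar-1 were matched or bettered at 39.2% to 64.6% of all genes. The windows of the 10 genes were longer than usual, with a median of 6938 bp against 5027 bp, and held 0.345 regions per kb against 0.311. Their 29 regions had a median pooled signal of 7.62, against 7.81 over the whole list.

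The GATA binding site was counted around the summits. WGATAR lay within 50 bp of 4 of the 29 summits (13.8%, 95% exact binomial interval 3.89 to 31.7), against 20.9% of the other pooled regions and 53.8% of the 351 thresholded peaks. The share over the other regions lies inside the interval, so no difference from them was detectable with 29 regions. The 4 windows were at dsh-1 (rank 25776), bar-1 (18688), apr-1 (19500) and lin-44 (9223). None of the 6 regions among the first 5000 held the site, against 25.2% of the other regions of that rank, with an interval of 0 to 45.9% for these 6. Within the whole region, WGATAR was in 10 of 29 (34.5%), against 45.6% elsewhere. The shorter word GATA was in 19 of the 29 windows (65.5%, interval 45.7 to 82.1), against 49.5% elsewhere, which again lies inside the interval. Intervals cover the counting of regions only, and regions of 1 gene are not independent.

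A site for TCF factors such as POP-1 was also searched, as CTTTG followed by A or T, on either strand. It lay within 50 bp of 6 of the 29 summits (20.7%, interval 7.99 to 39.7), 2 of them at dsh-2 and 2 at apr-1, and in 12.8% of the other pooled regions. The overall share lies inside the interval, so no difference was detectable with 29 regions. The only overlap with WGATAR was the coding exon region of apr-1.

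By place, 6 of the 29 summits lay in a promoter of any protein-coding gene (20.7%, interval 7.99 to 39.7), against 30.0% of the other regions. These were the strongest regions of mig-5, dsh-2, bar-1, lin-17 and lin-44, each in its own promoter, and the apr-1 region in the promoter of K04G2.7. Exons held 13 (44.8%, interval 26.4 to 64.3), against 25.5% of the other regions, introns held 9 (31.0%) against 22.7%, and 1 (3.45%), the distal region of pop-1, lay between genes, against 21.8%. The other regions came from the whole genome and these from gene bodies with 3 kb of upstream sequence, so the shares were not tested against each other.

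To place the 10 genes in the pathway, 35 further Wnt genes were given the same window. Of these, 3 held a thresholded peak (8.57%) and 6 one of the first 1000 regions (17.1%), again beside 1.74% and 5.26% of all genes. These shares are not adjusted for window length, which was 18519 bp at egl-18 and 25414 bp at lit-1 against a median of 5027 bp over all genes. The 3 with a peak were mom-1, which encodes the Porcupine protein needed for Wnt secretion, and the target genes egl-18 and elt-6. These target genes lie next to each other and encode GATA factors of the seam cells, and elt-6 counts only through a peak shared with egl-18. The mom-1 peak (chromosome X from 6296452 to 6296715) lay in an intron 3472 bp downstream of the start, at a pooled signal of 33.0 and rank 171, with rank 152 and 4.72-fold in replicate 1 and rank 1860 and 1.72-fold in replicate 2, a mean of 3.22 ± 2.1-fold (SD, n = 2). The highest mom-1 region of replicate 2 was another, 874 bp upstream of mom-1 and 506 bp upstream of its neighbour lev-9, in the promoters of both, at rank 309 there and rank 27339 in replicate 1. One peak of egl-18 (chromosome IV from 1914957 to 1915220), at rank 44, lay in an intron and also 2888 bp upstream of elt-6, at 7.86-fold in replicate 1 and 3.66-fold in replicate 2. This elt-6 peak lies beyond a window of 1 kb, with which elt-6 holds none. The other egl-18 peak (from 1911405 to 1911535), in an intron, was the best-ranked region of all 45 genes, at a pooled signal of 111 and rank 7. It had rank 4 and 15.6-fold in replicate 1 and rank 9 and 9.54-fold in replicate 2, a mean of 12.6 ± 4.3-fold (SD, n = 2), and no GATA core within 50 bp of its summit. The windows of these 3 peaks are shown beside that of mig-5: the peak of mom-1 and the one shared by egl-18 and elt-6 each held AGATAG near the summit, and the strongest egl-18 peak, as that of mig-5, held no core. Capitals mark GATA cores as before.
mom-1, chrX:6296534-6296634: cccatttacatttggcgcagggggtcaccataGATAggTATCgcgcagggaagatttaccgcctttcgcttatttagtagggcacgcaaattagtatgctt
egl-18 and elt-6, chrIV:1915039-1915139: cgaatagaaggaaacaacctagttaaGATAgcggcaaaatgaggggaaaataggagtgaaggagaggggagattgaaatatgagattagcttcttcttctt
egl-18, chrIV:1911420-1911520: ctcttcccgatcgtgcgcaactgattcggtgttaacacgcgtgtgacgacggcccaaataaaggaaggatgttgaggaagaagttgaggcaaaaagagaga

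By role, the peaks of the wider list lay at 1 of 3 secretion genes and 2 of 9 target genes. No peak lay at the 2 other ligand genes, 3 other Frizzled genes, 5 other receptor or planar polarity genes, 4 other genes of the destruction complex, 3 other beta-catenin genes within the 3 kb window, 3 genes for the kinases of the asymmetry pathway and their activator, 2 corepressor genes or the antagonist gene sfrp-1. Among the genes without a peak, the best-ranked regions were at hmp-2, the beta-catenin of epidermal junctions (rank 551, 1.84 ± 0.66-fold, SD, n = 2), and at the Hox gene lin-39 (rank 646), where the replicates gave 2.11-fold and 2.12-fold at a summit 93 bp downstream of a transcript start, beside a TGATAA site. The kinase gene lit-1, which acts with WRM-1 on POP-1, had a region at rank 702 that was matched in replicate 1 only. The beta-catenin genes sys-1 and wrm-1, which work in the asymmetry pathway itself, had best ranks of 2181 and 18390, though sys-1 gains a peak with a window of 5 kb.

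**Figure D3:**
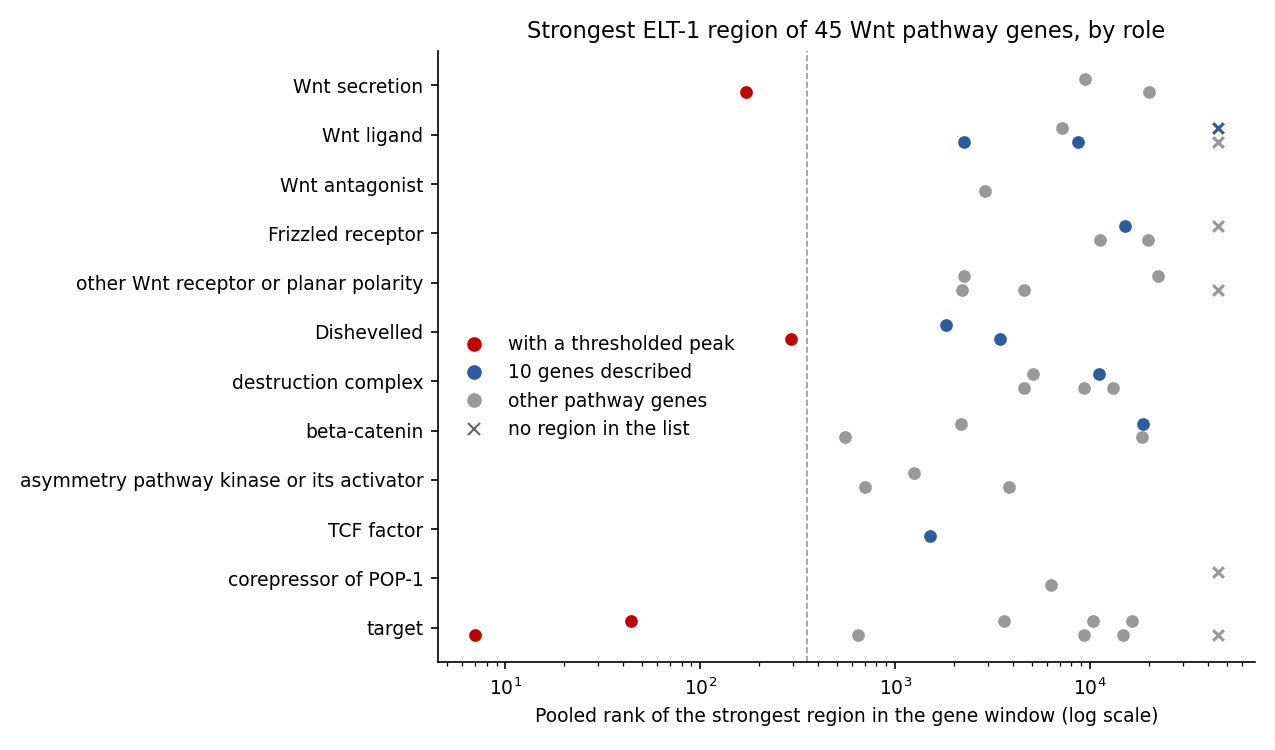
Each point is 1 of 45 pathway genes, placed by role on the y axis and by the pooled rank of the strongest region in its window on the logarithmic x axis; the dashed line marks rank 351, the last thresholded peak. Red points are mig-5, mom-1, egl-18 and elt-6, blue points are the other genes described here, grey points are the rest of the list, and crosses at the right edge are genes with no region.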

How the data were processed

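ELT-1 ChIP-seq was done in 2 biological replicates of L2 larvae. Per the file listing deposited with the samples, the authors ranked regions on the alignments of each replicate with a control, and on both replicates pooled, and kept thresholded peaks from the pooled list by the irreproducible discovery rate. The deposited signal of each region has its own scale in each list, so ranks or folds over the median region of the list were used (medians 7.81 pooled, 4.65 in replicate 1 and 5.17 in replicate 2). The sources used here do not give the aligner, peak caller, threshold or strain of the control, and the read depth is unknown. The labels give the builds ce11 and ce10, and only the ce11 lists were used. Their largest region ends lay within the WBcel235 chromosomes of the RefSeq assembly, the source of all sequences. Genes came from Ensembl release 115 (gene start and end the same as in RefSeq for 6 of the 10 genes).

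A gene's window ran from 3 kb upstream to its end. A pooled region took its replicate values from the closest replicate summit, at most 100 bp away. Both strands were searched for motifs, up to 50 bp to either side. Coordinates are 1-based, and counts of genes are over 19973 protein-coding genes on 6 nuclear chromosomes, using Python 3.11.15, pandas 2.3.3 and scipy 1.17.1. No test between groups was possible with 1 group, so counts stand beside the share over all genes or regions. The steps were tested on simulated data. The members, lists and rules were chosen with earlier results of these data known. All 10 genes are named, with each peak or else the first-ranked region, neighbours sharing a summit, and of the wider list the genes with a peak and those with the 5 best-ranked regions. The genes sys-1 and wrm-1 and other regions were named after their values were seen. Alternatives changed the window, the threshold, the motif, the matching distance and the replicates used.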

Additional observations from a re-analysis of the deposited data

How the results depend on the processing

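Of 36 alternatives, 25 left the value within 1.5 times, its interval or its SD, and 11 moved it. The count of 1 of the 10 genes with a thresholded peak, mig-5, held for the other windows and any overlap. It was 0 with the upper part of the peaks by signal, and between 0 and 1 when either replicate was left out. Genes with one of the first 1000 regions of a single replicate list numbered 2 in replicate 1 and 0 in replicate 2, against 5.40% and 5.65% of all genes. In the wider list, 0 of 35 genes had a peak when only promoters counted, in place of 3. There were 2 with 1 kb upstream (without elt-6), against 1.19% of all genes, and 4 with 5 kb (with sys-1), against 2.23%. Matched in both replicates were 6 of 29 regions within 200 bp, in place of 3. The share with WGATAR was 27.6% within 100 bp, 3.45% within 25 bp, 3.45% for AGATAA, 65.5% for GATA and 0 among the first 5000 regions, in place of 13.8%. Of the other pooled regions, 6.95% held AGATAA and 49.5% GATA, and WGATAR was in 25.2% of those among the first 5000. The promoter share was 48.3% with 2000 bp upstream to 500 bp downstream, in place of 20.7%. The promoter-only, 200 bp, 100 bp, 25 bp and wider promoter settings have no share over other genes or regions beside them. The mean fold of the mig-5 peak, 2.45, ran from 1.22 to 3.67 without a replicate. These values count as unmoved by construction, because with 2 replicates leaving 1 out cannot shift a mean beyond its SD. Apart from what a wider window or another word counts by construction, the cause was not tested. No paired analysis was possible because there is 1 group. Region lists without reads and 2 replicates limit every value.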
